A study of Mus musculus with 2 samples.

Results

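The chaperone and heat shock genes were taken by name from the deposited tables of m6A sites: the Hsp70, Hsp110, Hsp90 and small heat shock proteins, the chaperonins of the CCT ring with Tcp1, Hspd1 and Hspe1, the prefoldins, the J proteins (Dnaj), the Bag factors, the Fkbp prolyl isomerases and the Pdia disulfide isomerases. Of 8262 named genes with a listed position in either library, 79 matched. They held 371 listed positions in replicate 1 and 472 in replicate 2. A site was a position with at least 20 reads. Sites with 20 reads or more in both libraries were called shared, and for each gene the transcript with the most shared sites was kept. This left 128 shared sites in 41 chaperone genes, out of 4851 shared sites in 1887 genes.

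The samples were day 6 retinal organoids of the mouse stem cell line Rx:GFP, wild-type, cultured with AGN at 0.1 µM for 6 days. Rx:GFP cells carry green fluorescent protein as a reporter for Rax (Rx), which marks the forming eye field. Both libraries belong to this 1 group (n = 2), with no untreated or mutant group, and whether they came from separate cultures is not stated, so the spread between them may be technical. RNA was read directly on nanopores, and each table gives, per transcript position, a fraction modified (0 to 1) and the number of reads covering it.

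Chaperones bind proteins that are not yet folded or have lost their fold. Hsp70 proteins bind short exposed stretches in a cycle driven by ATP, J proteins deliver clients and start that cycle, and several Bag factors, Hspbp1 and Hsp110 proteins release the nucleotide so that it can start again. Hsp90 acts later on kinases and receptors, the CCT ring folds actin and tubulin handed over by prefoldin, and the Pdia enzymes form and reshuffle disulfide bonds in the endoplasmic reticulum. N6-methyladenosine (m6A) is a methyl mark on adenosines of mRNA, laid down by a complex around METTL3 in the sequence context DRACH, in which D is not C, R is a purine and H is not G. The mark is known to bear on splicing, translation and decay of mRNA, and heat stress is known to change it on the 5′ ends of heat shock mRNAs.

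All listed positions lie on 4 sequences of 5 bases, which are shown because the median fraction modified at the A-ending one was well above those at the others. The capital is the central adenosine, the base methylated in DRACH. Which base of the 5 the listed position marks is not stated.
A-ending motif: ggAca
C-ending motif: ggAcc
T-ending motif with G first: ggAct
T-ending motif with A first: agAct

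Coverage summed over listed positions was 718245 reads in replicate 1 and 1598662 in replicate 2, and no position below 5 reads was listed. At the shared chaperone sites it ran from 21 to 713 reads (median 70) in replicate 1 and from 35 to 1709 (median 154) in replicate 2, against medians of 36 and 77 at the shared sites of other genes. Among markers of early retina, Rax, Six6, Lhx2, Sox2 and Hes1 had shared sites, and Six3, Pax6 and Otx2 were listed in both libraries without one. None of 5 pluripotency markers, none of 4 mesoderm and endoderm markers and 1 of 4 neuronal markers (Tubb3, at most 17 reads) was listed. A listing shows reads at a motif and is not a measure of expression.

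Among the chaperone genes, the fraction modified differed by motif. At each motif their median lay close to that of other genes. The modification caller is not stated, and whether it bears on the levels by motif was not tested. A-ending sites made up 61 of 128 (47.7%, against 38.3% of the sites of other genes). Their fractions had medians of 0.713 and 0.680 in replicates 1 and 2, or 0.696 ± 0.0235 (SD, n = 2). The 26 T-ending sites with G first had a median of 0.273 ± 0.0150, the 17 with A first 0.224 ± 0.000212 and the 24 C-ending sites 0.170 ± 0.0110 (each SD, n = 2). The gap between A-ending sites and the rest was wider than the spread between libraries.

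Set against other genes at the same motif, the median of chaperone sites was 0.0193 ± 0.00884 higher at A-ending sites (other genes 0.677 ± 0.0147) and 0.0185 ± 0.00187 higher at T-ending sites with G first (other genes 0.255 ± 0.0168). The difference was -0.0382 ± 0.00629 at T-ending sites with A first (other genes 0.262 ± 0.00608) and -0.0518 ± 0.00389 at C-ending sites (other genes 0.222 ± 0.00707; each SD, n = 2). An exact paired permutation test over the 2 libraries, two-sided, gave p = 0.5 for each motif, the smallest value 2 libraries allow. These differences depended on the settings. Without a coverage minimum they became 0.0246 ± 0.000530 (A first), -0.0272 ± 0.0289 (A-ending), 0.05 ± 0.0471 (C-ending) and -0.0081 ± 0.0279 (G first; each SD, n = 2). Each mean thus changed sign, though with G first the libraries lay on opposite sides of 0. With 50 reads the A-ending difference was 0.0051 ± 0.0298, with the libraries on opposite sides of 0, and the C-ending one 0.0542 ± 0.00778. Means per gene first gave 0.0304 ± 0.000742 with A first, 0.0404 ± 0.0211 at A-ending sites and 0.0357 ± 0.00402 with G first. Counting every transcript gave 0.0476 ± 0.00891 at A-ending sites and 0.0095 ± 0.0134 with G first. Each library's own sites gave 0.00545 ± 0.0323 at C-ending and 0.0157 ± 0.0278 at A-ending sites, with the libraries on opposite sides of 0 at both (each SD, n = 2).

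A fraction of 0.5 or more in both libraries was found at 44 of 61 A-ending chaperone sites (72.1%), where 61.9% of the A-ending sites of all genes reached it. The counts at the other motifs were 8 of 26 with G first (30.8%, background 22.9%), 4 of 17 with A first (23.5%, background 21.1%) and 3 of 24 C-ending (12.5%, background 16.4%). Fractions of 0.9 or more in both libraries occurred at 14 of 128 sites (10.9%, background 9.44%), 13 of them among the 61 A-ending sites (21.3%, background 20.7%), and of 0.1 or less at 11 (8.59%, background 10.3%). None of these shares was tested against its background, and those at the extremes of the scale lie closest to it.

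**Figure D1:**
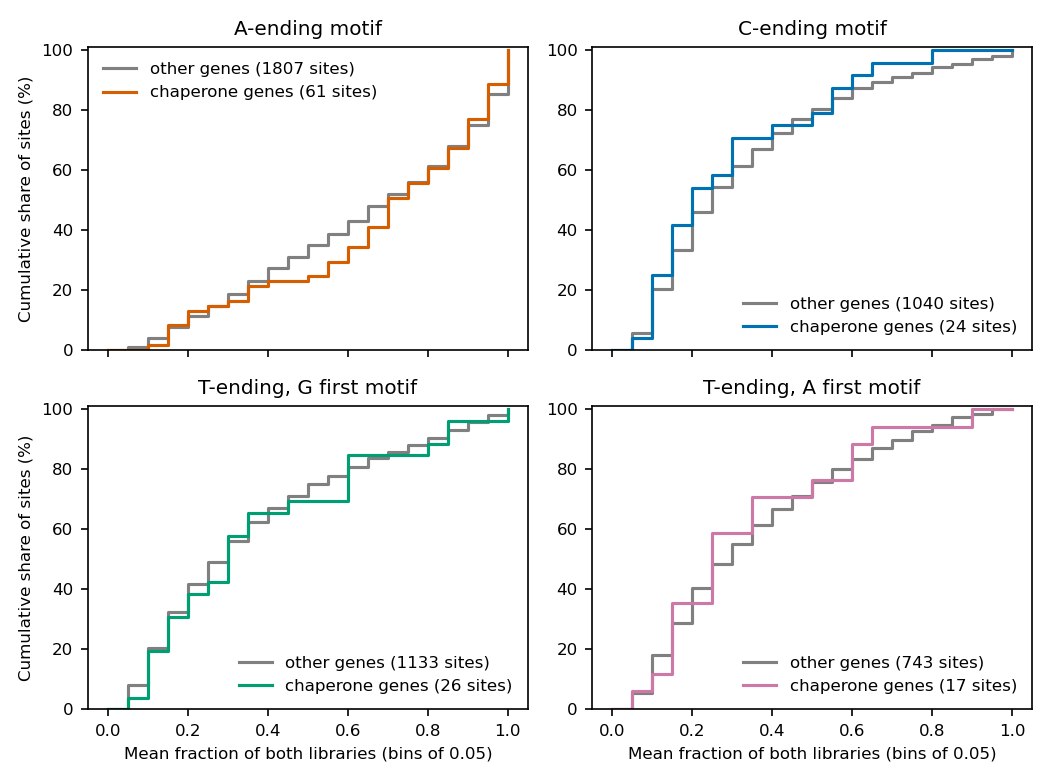
Cumulative share of sites (vertical axis, percent) against the mean fraction modified of both libraries (horizontal axis, bins of 0.05), for chaperone genes (coloured) and other genes (grey), in 1 panel per motif. The curves run close together at each motif, and the A-ending panel lies furthest to the right, with a median of 0.69 over the plotted means of the chaperone sites.

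The Hsp70 and Hsp110 group held 27 shared sites in 6 of 9 listed genes. Hspa8, the constitutive cytosolic Hsp70 (chromosome 9, 40712280 to 40721383, gene coordinates throughout being those deposited, of a build that is not settled), was the deepest chaperone transcript. Its A-ending sites at positions 1351 and 2068 of ENSMUST00000015800.15 had fractions of 0.824 over 651 reads and 0.651 over 708 in replicate 1, and 0.807 over 1640 and 0.614 over 1702 in replicate 2. At position 2127 (A first) the fraction was 0.235 and 0.215, and at position 2348 (C-ending) 0.249 and 0.252. Both libraries gave the 4 sites the same order, with the A-ending sites well above the others. Reads of near-identical copies may be shared with Hspa8, and how they were assigned is not stated.

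Hspa5, the Hsp70 of the endoplasmic reticulum also called BiP (chromosome 2, 34661982 to 34667559), carried 7 shared sites of mixed motifs, with a mean fraction of 0.304 ± 0.0224 (SD, n = 2). Its A-ending sites differed widely: position 339 had 0.729 over 90 reads and 0.627 over 193, whereas position 2109 had 0.120 over 106 and 0.129 over 217. A site with A first at position 1044 reached 0.633 and 0.621, while the sites with A first at 231 and 2118 had 0.224 and 0.202, and 0.116 and 0.0994. The sites with G first at 222 and 2280 had 0.130 and 0.102, and 0.286 and 0.235. In both libraries, positions 339 and 1044 stood apart from the other 5.

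Hspa9, the mitochondrial Hsp70 (chromosome 18, 35070467 to 35087410), also had 7 shared sites, with a mean of 0.480 ± 0.00227 (SD, n = 2). Position 1985 was the only shared chaperone site listed at 1 in both libraries, over 40 and 136 reads. The other A-ending sites had 0.333 and 0.329 at position 917, 0.611 and 0.722 at 1542, and 0.640 and 0.667 at 1611. With A first, position 1081 had 0.6 and 0.569 and position 1453 had 0.107 and 0.0333, and the G-first site at 2197 had 0.0606 and 0.0541. The sites of this transcript thus spanned the whole scale, from 0.0574 to 1 in mean fraction, with the libraries at most 0.111 apart.

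Hspa4, an Hsp110 protein (chromosome 11, 53150641 to 53191284), had 5 shared sites. The fraction was 0.5 in both libraries at position 904, 0.278 and 0.247 at 2460, 0.158 and 0.255 at 2811, and 0.132 and 0.117 at 2849. Position 4146, the most distant shared chaperone site from a transcript start, had 0.938 over 27 reads in replicate 1 and 0.667 over 70 in replicate 2. This was the largest difference between libraries among the 128 sites. Hspa4l, its close relative, had an A-ending site at position 2685 with 1 over 21 reads and 0.966 over 60, and a G-first site at position 2762 with 0.0556 and 0.125. In Hspa14, an Hsp70 protein bound to the ribosome, the G-first site at position 272 had 0.941 over 24 reads and 0.976 over 62. It was the only chaperone site outside the A-ending motif with 0.9 or more in both libraries, and the C-ending site at 1383 had 0.176 and 0.186.

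All 3 Hsp90 genes had shared sites, 11 in total. In Hsp90ab1, the constitutive cytosolic form (chromosome 17, 45878701 to 45884197), the A-ending site at position 1901 had 0.966 over 691 reads and 0.974 over 1564. No other chaperone site with a fraction of 0.9 or more in both libraries was covered as deeply. Its other A-ending sites were lower, with 0.713 and 0.634 at position 303 and 0.338 and 0.347 at 1197, and the C-ending site at 1047 had 0.166 and 0.154. Hsp90aa1, the stress-inducible form, had 0.837 over 184 reads and 0.832 over 513 at its A-ending position 1967, 0.567 and 0.621 at the G-first position 665 and 0.383 and 0.346 at the C-ending position 402. Hsp90b1, the form of the endoplasmic reticulum, had 0.933 over 67 reads and 0.913 over 198 at position 2508 and 0.280 and 0.324 at position 1762, both A-ending. Its sites with A first had 0.389 and 0.258 at 832, and 0.216 and 0.224 at 2633. Each of the 3 transcripts carried its highest shared site A-ending and between positions 1901 and 2508.

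**Figure D2:**
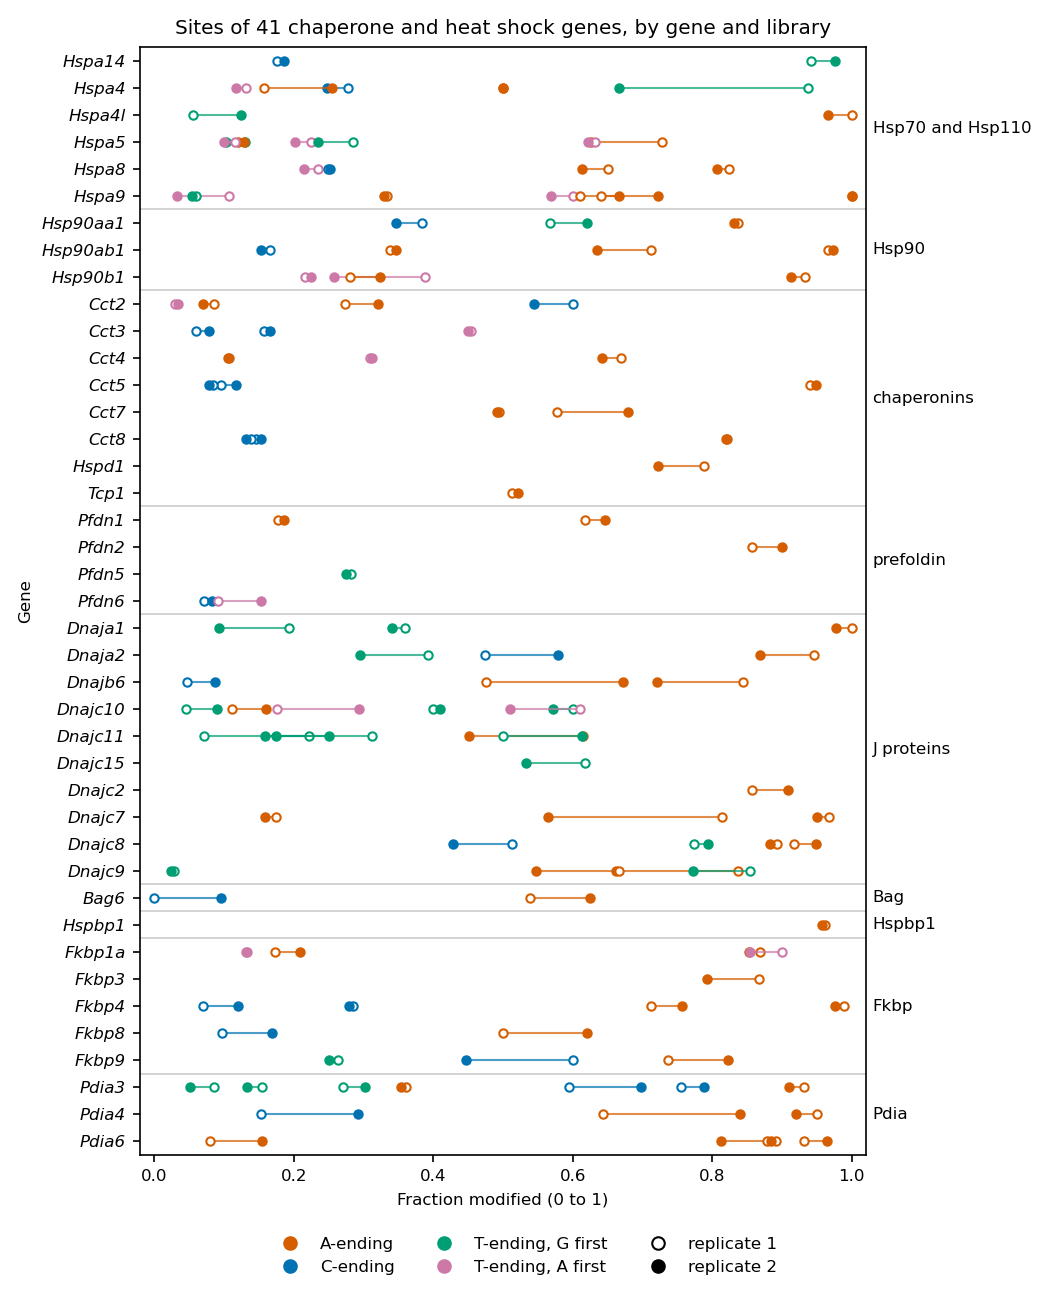
Fraction modified (horizontal axis, 0 to 1) at each of the 128 shared sites, by gene (rows) and role group (right). Open points are replicate 1, filled points replicate 2, a line joins the libraries and colours mark the motif. A-ending sites fill the right of the plot, and single genes such as Hspa9 and Pdia6 reach from near 0 to near 1.

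The chaperonins held 20 shared sites in 8 of 9 listed genes. Against other genes at the same motif, their sites had a median difference of -0.0890 ± 0.00638 (SD, n = 2), and 13 of 20 lay below the other genes' median in both libraries, while 6 lay above. Over all chaperone sites these counts were 55 and 57 of 128, and the median difference was 0.0033 ± 0.00438 (SD, n = 2). In Cct2 (chromosome 10, 116886906 to 116899719) the A-ending site at position 337 had 0.0862 over 103 reads and 0.0703 over 216, the lowest of the 61 A-ending sites by the mean of both libraries. The other sites of Cct2 had 0.6 and 0.545 at position 239 (C-ending), 0.0291 and 0.0343 at 739 (A first) and 0.274 and 0.321 at 1660 (A-ending). In Cct2 the C-ending site was thus higher than both A-ending sites in each library, unlike the order of the motif medians.

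Cct4 (chromosome 11, 22940519 to 22953780), the deepest chaperonin, had A-ending sites of 0.670 over 159 reads and 0.642 over 351 at position 885, and 0.107 over 204 and 0.106 over 425 at 1961. Its site with A first at 1541 had 0.310 and 0.312. Cct5 had an A-ending site of 0.940 over 185 reads and 0.950 over 365 at position 589, beside C-ending sites of 0.0959 and 0.117 at 302 and 0.0839 and 0.0782 at 459. Cct8 showed the same layout, with 0.821 and 0.819 at the A-ending position 982 and C-ending sites of 0.146 and 0.153 at 230 and 0.139 and 0.131 at 852. In Cct3 the C-ending sites at 377 and 404 had 0.158 and 0.167, and 0.0606 and 0.0780, and the site with A first at 1571 had 0.455 and 0.449. Of the 7 C-ending chaperonin sites, 6 thus lay at or below 0.167 in both libraries, the exception being that of Cct2. The A-ending sites of Cct7, Tcp1 and the mitochondrial Hspd1 lay between 0.492 and 0.789.

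Prefoldin, the holder that hands actin and tubulin to the CCT ring, had 6 shared sites in all 4 listed genes. Pfdn5 (chromosome 15, 102234551 to 102240308), the deepest, had a G-first site of 0.282 over 153 reads and 0.276 over 268 at position 594. In Pfdn1 the A-ending sites had 0.177 and 0.187 at position 154, and 0.617 and 0.646 at 535. Pfdn2 had 0.857 over 35 reads and 0.9 over 39 at position 51, the shared chaperone site nearest to a transcript start. Both sites of Pfdn6 were low, with 0.0714 and 0.0833 at 440 and 0.0909 and 0.154 at 499. The median difference from other genes was -0.0851 ± 0.0320 (SD, n = 2), over 6 sites only.

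The J proteins were the largest family, with 30 listed genes, of which 10 had 33 shared sites. Their sites lay a median of 0.133 above other genes at the same motif in replicate 1 and 0.0539 in replicate 2 (0.0936 ± 0.0561, SD, n = 2), with 18 sites above and 9 below in both libraries. Dnajc9, which also binds histones (chromosome 14, 20434706 to 20438978), had 4 sites with a wide spread. The G-first site at position 535 had 0.0278 over 77 reads and 0.0240 over 136, the lowest shared chaperone site by the mean of both libraries, whereas the G-first site at 752, 217 bases further on, had 0.854 over 92 and 0.772 over 150. Its A-ending sites had 0.837 and 0.663 at 375, and 0.667 and 0.548 at 823. The difference between the G-first sites was 0.826 in replicate 1 and 0.748 in replicate 2, far wider than the libraries' spread at either site.

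Dnaja1 and Dnaja2, the main cytosolic partners of Hsp70, had A-ending sites of 1 and 0.977 at position 631 and of 0.946 and 0.868 at position 1429. In Dnaja2 a G-first site 8 bases upstream, at 1421, had 0.393 and 0.295, and both were covered by 71 and 156 reads, so neighbours differed by 0.554 and 0.574. Dnajc7, a co-chaperone that also binds Hsp90, had A-ending sites of 0.174 and 0.159 at 859, 0.968 and 0.950 at 1915 and 0.815 and 0.565 at 2112. The last of these, over 37 and 63 reads, was the largest difference between libraries after that of Hspa4. Dnajc8, a splicing-associated J protein, lay above the other genes' median at the same motif at all 4 shared sites, with 0.917 and 0.949 at 348, 0.894 and 0.882 at 699, 0.514 and 0.429 at 808, and 0.774 and 0.794 at 843.

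Dnajc10, a disulfide reductase of the endoplasmic reticulum (chromosome 2, 80145810 to 80184387), had 6 shared sites over 22 to 26 reads in replicate 1 and 65 to 77 in replicate 2. Its only shared A-ending site, at 3221, was low with 0.111 and 0.161. A-ending positions at 399 and 1381 reached 20 reads only in replicate 2, with 0.954 over 47 reads and 0.5 over 58, and had 1 over 13 and 0.643 over 17 in replicate 1. The higher sites were 0.6 and 0.571 at 2668, 0.611 and 0.510 at 3064 and 0.4 and 0.410 at 2332, and the lower ones 0.0455 and 0.0896 at 3189 and 0.176 and 0.294 at 3256. Dnajc11, a mitochondrial J protein (chromosome 4, 152018148 to 152066594), had 5 shared sites with 22 to 24 reads in replicate 1. The fractions were 0.615 and 0.452 at 1886, 0.5 and 0.613 at 1925, 0.222 and 0.159 at 2073, 0.0714 and 0.25 at 2193, and 0.313 and 0.174 at 2203. The order of the sites at 2193 and 2203 turned between libraries, and at this depth they cannot be ranked. The sites of Dnajb6 had 0.476 and 0.672, 0.844 and 0.721, and 0.0476 and 0.0870, that of Dnajc15 0.617 and 0.533, and that of Dnajc2, which acts at the ribosome, 0.857 and 0.909.

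Among the Bag genes, Bag6 (chromosome 17, 35354154 to 35366298), which guards proteins bound for membranes, was the only one with shared sites. They had 0.539 over 22 reads and 0.625 over 55 at position 3448, and 0 over 21 and 0.0952 over 56 at 3789. Hspbp1, a nucleotide exchange factor of Hsp70 (chromosome 7, 4663520 to 4688067), had 0.962 over 29 reads and 0.957 over 56 at position 1111. Bag1 had 19 reads at most in replicate 1 and reached 26 in replicate 2, and Bag2, Bag3, Bag4 and Bag5 stayed at or under 18 reads.

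In the Fkbp family 5 of 10 listed genes had 14 shared sites, with a median of 0.0545 ± 0.0245 above other genes at the same motif (SD, n = 2). Fkbp4, a partner of Hsp90 in steroid receptor complexes (chromosome 6, 128406698 to 128415640), had the highest of the 79 shared sites with at least 50 reads in both libraries: 0.989 over 95 reads and 0.977 over 191 at position 1904. Its other sites had 0.713 and 0.757 at 239, 0.286 and 0.280 at 320, and 0.0698 and 0.120 at 1366. Fkbp3, a nuclear form (chromosome 12, 65109198 to 65120781), had 0.867 over 257 reads and 0.793 over 437 at position 692. Fkbp1a, the small cytosolic form bound by the drug FK506, had a site with A first at position 1224 of 0.9 and 0.854, the highest of the 17 sites of that motif, and a low one at 1380 of 0.133 and 0.131. Its A-ending sites had 0.869 and 0.853 at 351, and 0.173 and 0.209 at 721. The A-ending sites of Fkbp8, anchored in mitochondria, and of Fkbp9 had 0.5 and 0.621, and 0.737 and 0.822.

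The Pdia family had 14 shared sites in 3 of 4 listed genes. Their median lay 0.0976 and 0.160 above other genes at the same motif in the respective libraries (0.129 ± 0.0438, SD, n = 2), and the median of the 8 A-ending sites was 0.874 ± 0.0163. In Pdia3, which acts with calnexin and calreticulin on glycoproteins (chromosome 2, 121244256 to 121269168), C-ending sites at 664 and 1925 had 0.756 and 0.788, and 0.595 and 0.699. These were 2 of the 3 C-ending chaperone sites with 0.5 or more in both libraries, the other being in Cct2. The A-ending site at 1849 had 0.932 over 169 reads and 0.910 over 333, and that at 1147 had 0.361 and 0.354. G-first sites were low, with 0.155 and 0.133 at 623, 0.271 and 0.302 at 1041, and 0.0855 and 0.0515 at 1816.

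All 4 shared sites of Pdia6 (chromosome 12, 17316546 to 17334771) were A-ending. Positions 70, 1098 and 1774 had 0.891 and 0.813, 0.932 and 0.965, and 0.879 and 0.884, whereas position 662 had 0.0806 over 88 reads and 0.155 over 193. The difference between 662 and 1098 was 0.851 in replicate 1 and 0.811 in replicate 2, the widest between sites of 1 motif on 1 chaperone transcript. Pdia4 had 0.643 over 21 reads and 0.840 over 35 at position 1944, the third largest difference between libraries, with 0.950 and 0.920 at 2098 and 0.154 and 0.292 at 2036. Pdia5 stayed at or under 17 reads.

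**Figure D3:**
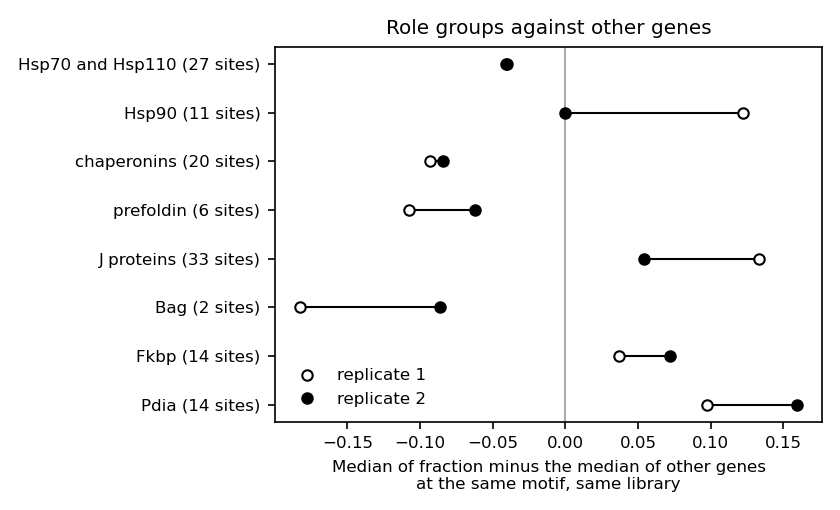
Median, over the shared sites of each role group with more than 1 site, of the fraction minus the other genes' median at the same motif and library (horizontal axis), with open points for replicate 1 and filled points for replicate 2. Chaperonins, prefoldin, Bag and the Hsp70 group lie left of 0 in both libraries and J proteins, Fkbp and Pdia right of it, while Hsp90 runs from 0.122 in replicate 1 to -0.0005 in replicate 2.

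Among the groups with more than 2 sites, the medians thus ran from -0.0890 in the chaperonins to 0.129 in Pdia, over few genes each, and no test between groups was made. The Hsp70 group lay at -0.0403 ± 0.000354 (SD, n = 2). Hsp90 had 0.0609 ± 0.0868, so at 20 reads its direction rests on replicate 1. With a minimum of 50 reads the J proteins had the highest median, 0.198, followed by Pdia with 0.163. In Hsp90 it was 0.149 ± 0.00205 (SD, n = 2), with both libraries then above 0. It was 0.0888 in Fkbp, -0.0394 in the Hsp70 group, -0.0511 in prefoldin and -0.0641 in the chaperonins. Without a minimum the median lay closer to 0 in the J proteins (0.0484), Fkbp (0.0235) and Bag (-0.0281). It lay further from 0 in the chaperonins (-0.116), Pdia (0.142), Hsp90 (0.067), prefoldin (-0.0950) and the Hsp70 group (-0.0449).

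Sites of the same motif on the same transcript could differ far more than the libraries did. Among 60 such pairs, 13 were more than 0.5 apart in the same direction in both libraries (21.7%, background 16.7% of 2004 pairs in all genes), led by Pdia6, by Dnajc7 (positions 859 and 1915, 0.794 and 0.791 apart) and by Dnajc9. Of the 19 genes with several A-ending sites, 8 had a range above 0.5 in both libraries (42.1%, background 30.7% of 449 genes): Cct4, Dnajc7, Fkbp1a, Hsp90ab1, Hsp90b1, Hspa9, Pdia3 and Pdia6. The A-ending sites of Dnajc8, in contrast, lay within 0.0447 of each other in mean fraction. Within 20 bases of each other lay 4 pairs. Besides those of Dnaja2 and Dnajc11, Hspa5 held both others, 9 bases apart each, at 222 and 231 (0.0945 and 0.0991 apart) and at 2109 and 2118 (-0.0037 and -0.0296).

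**Figure D4:**
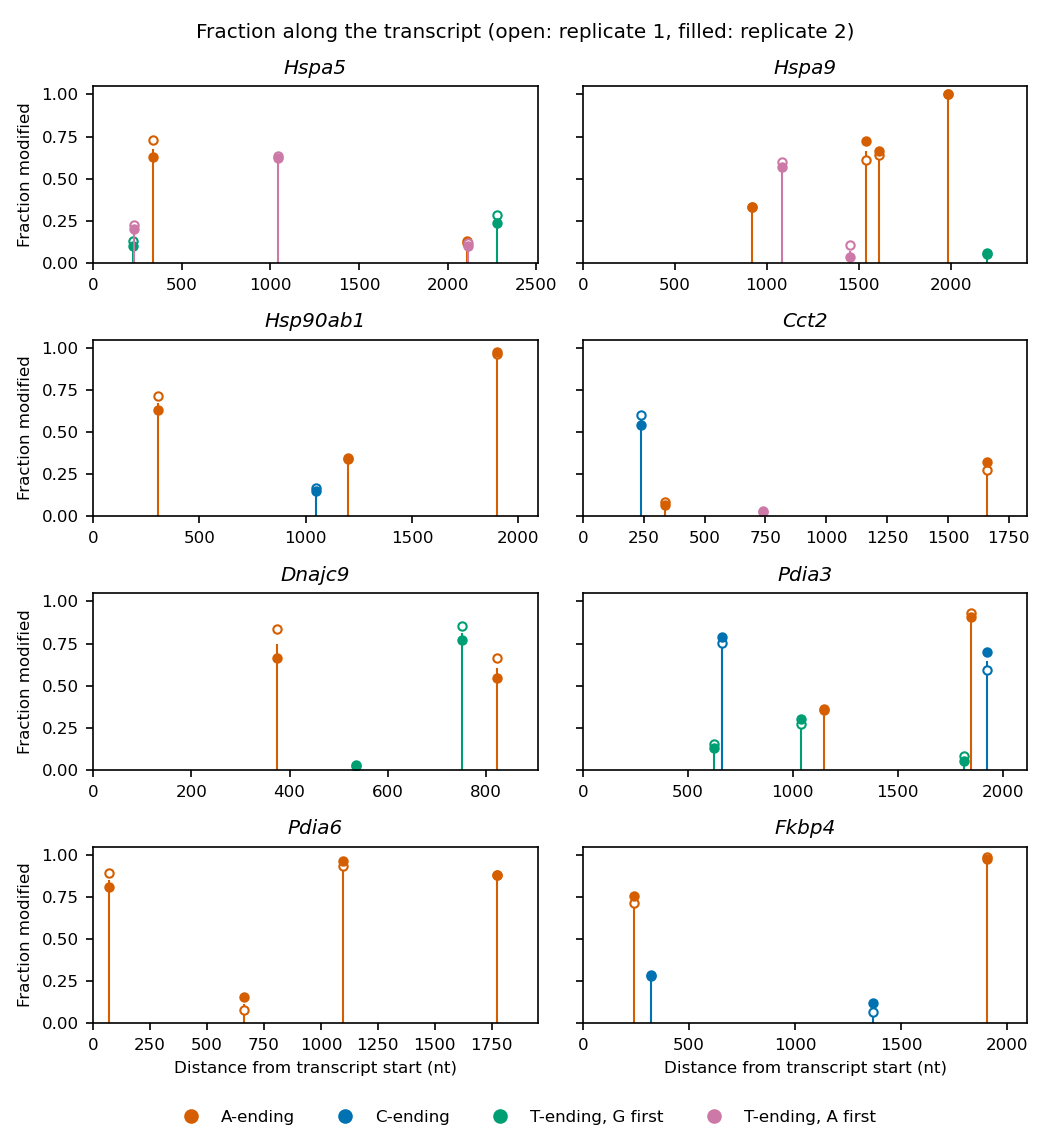
Fraction modified (vertical axis) against distance from the transcript start in nucleotides (horizontal axis) at the shared sites of 8 chaperone transcripts, with open points for replicate 1, filled points for replicate 2 and colours for the motif. Stems end at the mean of both libraries. High and low sites lie on the same transcript, as in Pdia6, where position 662 has a mean of 0.118 between sites with means of 0.852 and 0.949.

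Along the transcripts, shared chaperone sites lay between positions 51 and 4146 (median 1223.5, against 1061 in other genes). The median fraction of A-ending sites was 0.701 ± 0.0399 in the first 500 bases (13 sites), 0.643 ± 0.00152 between 500 and 1000 (14 sites), 0.828 ± 0.00580 between 1000 and 2000 (23 sites) and 0.632 ± 0.0260 beyond (11 sites; each SD, n = 2). In other genes these medians were 0.656 ± 0.0307, 0.730 ± 0.0196, 0.685 ± 0.00827 and 0.627 ± 0.0251. No common trend along the transcript appeared in either set. Depth rose toward the 3′ end, where direct RNA reads begin: from the first to the last shared site coverage rose in both libraries in 24 of 33 chaperone genes and fell in 3, and the median ratio over the 33 genes was 1.15 in replicate 1 and 1.14 in replicate 2. In other genes it rose in 803 of 1189 and fell in 94, with median ratios of 1.09 and 1.07. Whether a site is in coding sequence or a UTR was not analysed here.

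In Hspa8 and Hspa5 a further transcript carried 3 shared sites each at a constant offset and the same motif as on the main transcript. For Hspa8 (offset 375 bases) the fractions on ENSMUST00000117557.7 were 0.826 and 0.833 at the A-ending site and 0.208 and 0.237 at the site with A first, each within 0.03 of those of the main transcript. At the C-ending site they were 0.134 and 0.201, which differ from the main transcript by -0.115 and -0.0502. For Hspa5 (offset 43) the 3 sites of ENSMUST00000100171.2 lay above the main transcript in replicate 1, over 28 or 29 reads, and below it in replicate 2, over 66 to 68 reads. Of these sites, those of Hspa8 at its A-ending and C-ending positions were the only ones to differ in the same direction in both libraries.

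The libraries agreed more closely as depth rose. Over the 128 sites, which share the same 2 libraries, Pearson's r was 0.972 and Spearman's rho 0.965 across sites. The root mean square difference was 0.0742 in all, 0.101 at 49 sites whose lower coverage was under 50 reads, 0.0677 at 35 sites from 50 to under 100 and 0.0324 at 44 sites with 100 or more. In other genes of the same depth it was 0.115, 0.0745 and 0.0496. A difference above 0.2 was seen at 2 sites (1.56%, background 6.0%), those of Hspa4 and Dnajc7, which had 27 and 37 reads in replicate 1. Coverage was higher at chaperone sites than in other genes, and whether it bears on this share was not tested. Replicate 2 gave the larger value at 56 sites and the smaller one at 70, and 2 were equal.

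**Figure D5:**
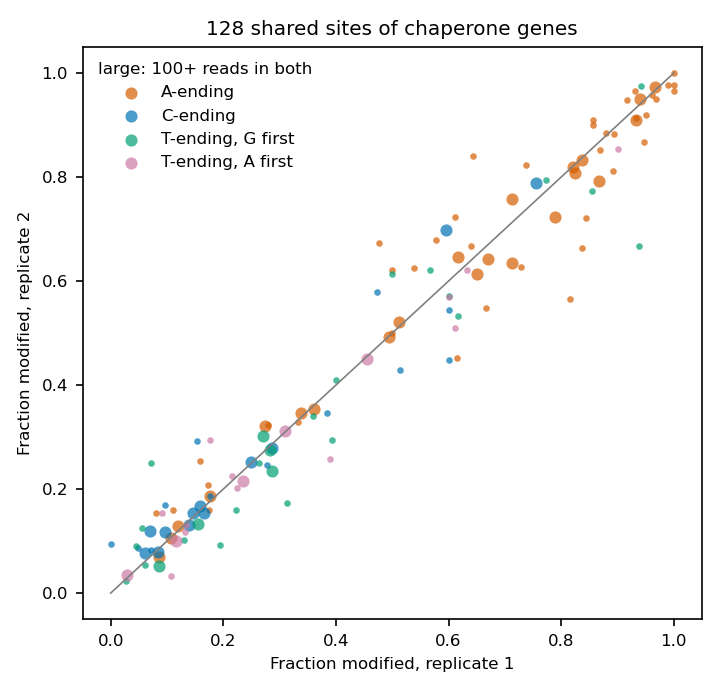
Fraction modified in replicate 2 (vertical axis) against replicate 1 (horizontal axis) at the 128 shared chaperone sites, coloured by motif. Large points have 100 reads or more in both libraries and small points fewer. Large points hug the line of equality, with a root mean square difference of 0.0324, and the small points scatter more widely.

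A site was found in 42 of the 79 genes in replicate 1 and 51 in replicate 2. Over all 8262 named genes these counts were 2026 and 3919, and 1887 had a shared site. Of the 79 genes, 41 had a shared site, 8 of them 1 site each and 3 of them 7. A further 10 reached 20 reads only in replicate 2: Bag1, Dnajb1, Dnajb11, Dnajc12, Dnajc13, Dnajc24, Dnajc30, Dnajc5, Hspa13 and Hsph1. Among these, Dnajb1, the J protein induced by heat, had 11 sites in replicate 2 over up to 51 reads and at most 19 reads in replicate 1, and Hsph1, an Hsp110 protein, had 4 over up to 44. Hspe1, the partner ring of Hspd1, had its only position in replicate 1, with 0.117 over 131 reads. The remaining 27 stayed below 20 reads, 13 listed in both libraries and 14 only in replicate 2. These included Hspb1, the only small heat shock protein listed, with at most 6 reads, Hspb11, a ciliary transport protein despite its name, with at most 16, and Fkbp5, a glucocorticoid-responsive gene, with at most 14. In bulk RNA, fewer cells expressing a gene and less RNA per cell cannot be told apart.

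Some chaperone positions listed in 1 library were missing from the other, although it covered sites on either side of them. In replicate 1, 86 sites lay between flanking sites of 20 or more reads on the same transcript in replicate 2, yet 15 of them (17.4%, background 17.8% of 2914 sites in all genes) were not listed there at any depth. The reverse held for 8 of 69 sites of replicate 2 (11.6%, background 13.6%). The deepest case was the C-ending position 1260 of Hsp90ab1, with 0.359 over 428 reads in replicate 1, which was missing in replicate 2 between positions 1197 and 1901 with 1031 and 1564 reads. In Cct2, position 674 had 0.377 over 115 reads in replicate 1 and was missing between sites of 216 and 244 reads. In replicate 2, position 1214 of Fkbp4 had 0.565 over 316 reads, and position 340 of Pfdn1 had 0.391 over 239, and neither was listed in replicate 1, where flanking sites had 120 and 169, and 113 and 124 reads. Depth and modification at a missing position are not known for the library that lacks it, and why it is missing was not tested. Counts of sites per gene or per library carry this limit. Both shares lie near those of all genes.

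Chaperone machinery outside these names was set beside the families as a list of 48 genes, of which 24 had 59 shared sites. Their median difference from other genes at the same motif was -0.0331 ± 0.00898 (SD, n = 2), and 21 sites (35.6%, background 36.2%) had 0.5 or more in both libraries, against 59 of 128 (46.1%) in the chaperone families, in which A-ending sites were more frequent. The Hsp90 co-chaperones Cdc37, with 4 sites, and Stip1, with 5, averaged 0.467 ± 0.0186 and 0.335 ± 0.00899, and Ptges3, with 2, had 0.506 ± 0.0148. Calr, the calcium-binding lectin chaperone calreticulin, had 5 sites from 0.135 to 0.967 with a mean of 0.627 ± 0.0489. P4hb, the founding disulfide isomerase, averaged 0.791 ± 0.0151 over 2 sites, 1 A-ending and 1 with A first. Grpel1, the nucleotide exchange factor of Hspa9, averaged 0.0536 ± 0.0113 over 2, 1 C-ending and 1 with G first (all SD, n = 2). These gene means pool motifs, so they cannot be compared between genes as levels at the same motif. The heat shock factors Hsf1 and Hsf2 were listed only in replicate 2, with at most 12 and 6 reads.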

How the data were processed

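The 2 direct RNA libraries (kit SQK-RNA002, about 48 h each, 1 µg of poly(A) RNA) were analysed. Per the file headers, the authors deposited for each listed position a fraction modified, between 0 and 1, and a coverage, a whole-number count of reads. Base caller, aligner, modification caller and thresholds are not given in the sources used here, and the denominator of the fraction is not stated: 26.7% and 24.8% of the chaperone fractions were whole multiples of 1 over the coverage (tolerance 0.0001). No test on reads was therefore made. Per the submitters' processing notes the build is mm10, yet only 4 of 79 deposited gene starts lay within 1000 bases of the GRCm38.p6 RefSeq start, so the build of the printed gene coordinates is not settled.

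Tables were matched on transcript and position with Python 3.11.15 and pandas 2.3.3. Named positions only were used; 219 and 533 had no gene name. Positions are the deposited interval ends. Medians were taken per library and motif, and errors are SDs over 2 libraries. The scripts were tested on simulated data. Sites, genes and role groups share these libraries and are not replicates. The members and lists were chosen with earlier results of these data known. By rule, every site was given for the 12 genes with most shared sites, ties going to the higher mean coverage. The same held for the gene of highest mean coverage in each role group. Sites of other genes were given after their values had been seen. Alternatives were the coverage minimum, the transcripts counted, means per gene, each library's own sites and matching within 5 nt. Sequences around the sites were not analysed here. Part of the early retina marker list is not reported here.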

Additional observations from a re-analysis of the deposited data

Results flagged for a closer look

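In the minus table of replicate 2, which lies outside the main measurement, Dnajc7 had a G-first site at position 208 with a fraction of 0.8 over 5 reads. It is given as a signal outside the main tables. Since no plus-table position under 5 reads was listed, a coverage of 5 is the lowest seen there and shows little by itself. The same position was listed in neither plus table, where Dnajc7 reached 67 reads in that library. No other chaperone gene was listed in a minus table, and what sets the minus tables apart from the plus ones is unstated.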

How the results depend on the processing

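Without a coverage minimum there were 236 shared sites, the root mean square difference was 0.150, and the chaperone medians were 0.273 (A first), 0.668 (A-ending), 0.3 (C-ending) and 0.232 (G first), with the differences from other genes reversed to 0.0246, -0.0272, 0.05 and -0.0081. With a minimum of 50 reads, 79 sites in 26 genes remained by construction, the root mean square difference was 0.0511, and the medians were 0.219 (A first) and 0.248 (C-ending), the latter now 0.0542 above other genes. Counting every transcript moved the A-ending median to 0.725 and its difference from other genes to 0.0476. With means per gene first, the medians were 0.306 (A first, now 0.0304 above other genes), 0.188 (C-ending) and 0.306 (G first). With each library's own sites they were 0.236 (A first) and 0.230 (C-ending, now 0.00545 above other genes). With each replicate left out in turn the Hsp90 group ran from -0.0005 (without replicate 1) to 0.122. For changes other than the smaller number of sites, the cause was not tested. The role group directions otherwise held under each coverage minimum, with every transcript and in each library alone, except that Bag and Hspbp1 had no site with 50 reads. Alternatives for role groups, and for the share of A-ending sites at 0.5 or more, were chosen after seeing the data. That share was 64.4% without a minimum (background 60.3%) and 70.3% with 50 reads (background 62.2%). Leaving out Hspg2, a proteoglycan taken in by the name pattern, changed nothing, as it had no listed site. No paired analysis was possible because the samples form 1 group, so no groups share replicate numbers. The exact test in the report pairs chaperone and other genes within a library.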
